A study of Ovis aries with 16 samples.

Results

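Collagens are the proteins that give connective tissue its strength, and the genes described here are those that encode their chains. They were chosen by name: every row of the deposited gene table whose symbol reads COL, a number, A and a number was taken. This gave 42 genes of 28524. By the kind of assembly their chains form, 11 are fibrillar, 6 belong to basement membranes, 5 to beaded filaments, 9 are fibril-associated collagens with interrupted helices (FACIT) and 11 form other structures. The values come from RNA sequencing of fat from female sheep aged about 21 months, in 4 groups of 4 libraries. Their mothers had been injected under the skin with bisphenol A (BPA), a plastics chemical with oestrogen-like activity, at 0.5 mg/kg/day in corn oil between days 30 and 90 of pregnancy (term is about 147 days), or with corn oil alone as the control. Visceral fat was mesenteric fat from beside the rumen's ventral sac, and subcutaneous fat came from over the sternum. All ewes, controls included, had their cycles synchronized with prostaglandin F2α, by repeated injection, and tissue was collected 24 hours after the final dose. The groups are therefore subcutaneous control, subcutaneous BPA, visceral control and visceral BPA, and the comparisons ask how prenatal BPA and the site of the fat depot relate to expression.

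A collagen molecule is built from α chains that wind around each other along a short repeat that always starts with glycine. Fibrillar collagens I, III and V form the rope-like fibres between cells, type IV forms the sheet that surrounds each adipocyte and each capillary, and type VI forms microfilaments that link that sheet to the fibres. FACIT collagens sit on the surface of fibrils, and the remaining classes include transmembrane chains and chains with an endostatin-like tail. In fat, fibroblasts and adipose progenitors make much of the fibrillar collagen, while adipocytes and endothelial cells also make type IV.

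The structure of the listed genes bears out the name. Exons of 54 bases, which encode 6 repeats of 9 bases, are the known unit of fibrillar collagen genes. Among the 39 chains with at least 10 listed exons, 457 of 1968 exons (23.2%) were 54 bases long, against 0.384% of exons in 9315 other genes with that many exons. Exons whose length was a multiple of 9 made up 59.7% of the collagen exons and 13.1% of the others. Of the 30 genes in the table with the highest share of 54-base exons, 18 were collagen chains. COL1A1 had 21 such exons of 51 and COL1A2 had 23 of 52, while COL4A1 had 2 of 52 and COL4A2 had 1 of 50. Some chains are neighbours in the table's positions. COL4A1 and COL4A2 start 304 bases apart on opposite strands, COL4A4 and COL4A3 start 289 bases apart in the same head-to-head arrangement, and the ends of COL5A2 and COL3A1 lie 16727 bases apart. COL6A1 and COL6A2, partners in type VI, follow each other on the same strand with a gap of 115154 bases. The genome build is not given in the sources used here, so no coordinates are stated. Only COL15A1 shares exon bases with another gene, 58 bases with LOC114112966 on the opposite strand, and since the strand setting of the counting is not given, reads in that stretch cannot be assigned.

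Library totals ran from 4.74 to 6.22 M (mega) counts in subcutaneous controls and from 3.05 to 4.83 M in subcutaneous BPA libraries. They ran from 11.0 to 13.1 M in visceral controls and from 6.77 to 14.3 M in visceral BPA libraries, so depth and depot do not overlap and cannot be told apart. Adipocyte markers summed to between 10493 and 28658 CPM in every library (counts of a gene per M counts of its library, after scaling). Mesothelial markers, which mark the lining of the abdominal cavity, summed to 1.85 to 9.04 CPM in subcutaneous and 32 to 338 CPM in visceral libraries. Visceral BPA library 977 stood apart: it lay above all 7 other visceral libraries in 27.5% and below all of them in 30.9% of 14793 genes. It also had the highest mesothelial sum, 338 CPM against 32 to 132 CPM in the others, and the lowest visceral adipocyte sum, 14258 CPM. Visceral BPA library 918 had the highest sum of smooth muscle and pericyte markers, 3975 CPM against 690.4 to 1652 CPM in the other visceral libraries, and of skeletal muscle markers, 303 against 21.1 to 103 CPM. The gene DES is in both lists and reached 278 CPM in visceral BPA fat, above the skeletal muscle sum of every visceral library but 918. These high sums of library 918 are therefore not separate measures. Results that rest on library 977 are given with and without it. The title numbers name the libraries, and since no label states that libraries of a group come from separate animals, p-values measure the spread between these samples.

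Collagen chains were among the most abundant transcripts in both depots. Their counts made up 2.58% ± 0.276 of all counts in subcutaneous controls (SD, n = 4), 2.39% ± 0.510 in subcutaneous BPA, 1.83% ± 0.316 in visceral controls and 2.01% ± 0.538 in visceral BPA. The 95% Wilson interval of any single library's share was at most 0.0308 percentage points wide, which covers counting error only. COL4A1, a chain of the main type IV network of basement membranes, ranked between 4th and 10th of all genes of at least 200 bases by count in every library. COL1A1, the main chain of type I fibres, ranked 24 to 39 in subcutaneous controls, 65 to 144 in subcutaneous BPA, 170 to 570 in visceral controls and 21 to 838 in visceral BPA.

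Levels of different genes were compared as CPM per 1000 bases of the length given in the table. On that scale type IV led in every group. COL4A1 averaged 717, 792, 901 and 879 CPM per 1000 bases in subcutaneous control, subcutaneous BPA, visceral control and visceral BPA, and its partner COL4A2 averaged 539, 589.6, 571 and 555. Of the chains of type VI microfilaments, COL6A1 averaged 516, 476, 398 and 412, COL6A2 averaged 397, 410, 283 and 326, and COL6A3 averaged 238, 252, 97.4 and 109. Fibrillar chains mixed with these: COL3A1, which was above COL6A2 in subcutaneous controls and is the single chain of the thin fibres of soft tissue, averaged 446, 282, 219.6 and 239. The type I chains averaged 366, 187, 98.3 and 128 (COL1A2) and 298, 138, 85.0 and 174 (COL1A1). Type V starts fibrils and limits their width, and its chains were COL5A3 at 116, 155, 121 and 151, COL5A2 at 113, 106, 105 and 96.7 and COL5A1 at 68.8, 78.5, 53.9 and 103. COL15A1, a basement membrane proteoglycan whose tail resembles endostatin, averaged 128, 179, 139.7 and 163. In subcutaneous controls COL6A1 and COL4A2 differed by less than their SDs of 103 and 88.1, so their order is not resolved.

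Summed per class, fibrillar chains took 33.8% ± 3.26 of the collagen signal per 1000 bases in subcutaneous controls, 24.8% ± 2.75 in subcutaneous BPA, 20.9% ± 1.69 in visceral controls and 24.2% ± 9.21 in visceral BPA (SD, n = 4). Basement membrane chains took 30.3% ± 3.94, 36.5% ± 3.70, 45.6% ± 3.15 and 42.2% ± 9.61 in the same order. Beaded filament chains took 28.7%, 30.1%, 24.0% and 24.0%, FACIT chains 3.02%, 2.97%, 2.10% and 2.22%, and the other classes 4.25%, 5.64%, 7.51% and 7.32%. The fibrillar share in subcutaneous controls, 30.5 to 38.3%, did not overlap with that in subcutaneous BPA, 21.9 to 27.6%, or in visceral controls, 18.9 to 23.1%. Shares of a whole are not independent of each other, and these were not tested.

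**Figure D1:**
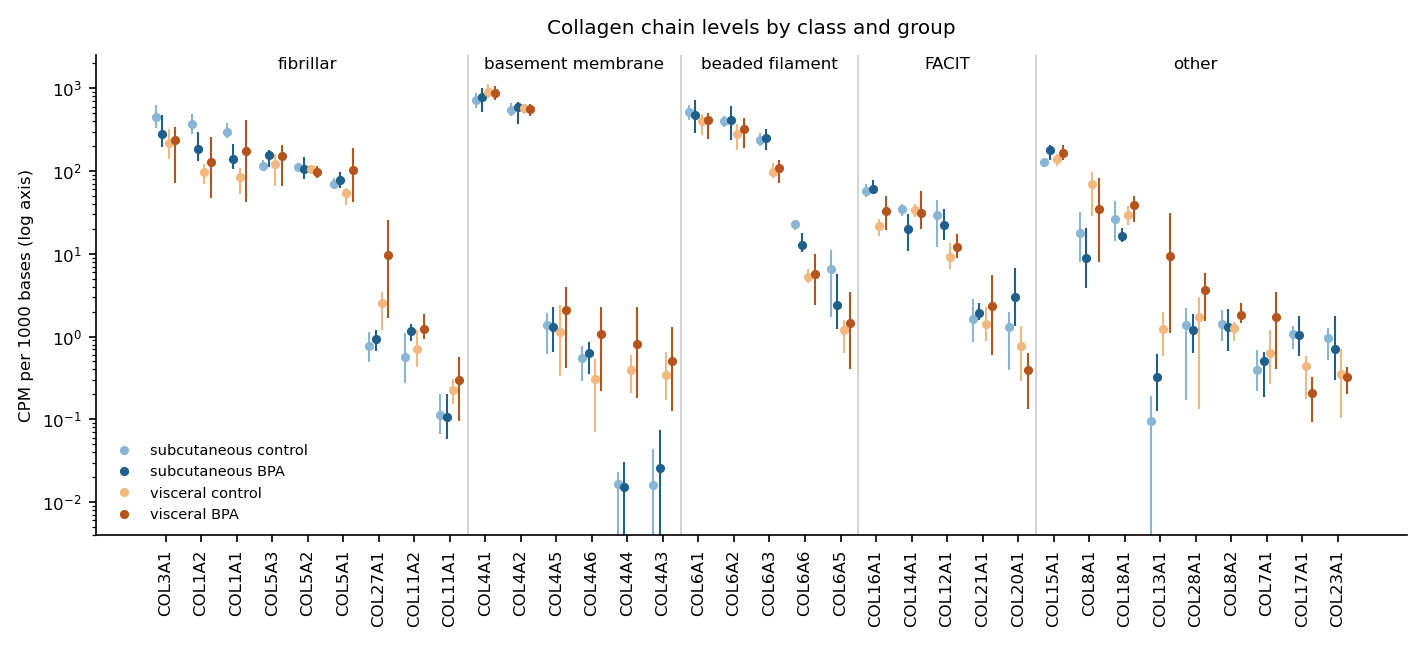
Level of the 34 tested collagen chains as CPM per 1000 bases on a log axis, by class and group; points are means of 4 libraries, lines run from the lowest to the highest library, and a line that reaches the lower edge stands for a library with no count. COL4A1 and COL4A2 hold the top ranks in all 4 groups, COL6A5 and COL6A6 lie well below COL6A1 and COL6A2, and COL4A3, COL4A4 and COL13A1 are near 0 in subcutaneous fat.

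Of the 42 chains, 34 had enough counts to be tested in at least 1 comparison and 29 in all 5. The 8 that were never tested belong mostly to cartilage or other specialised tissue. COL2A1, the main cartilage chain, had 3 counts in the 16 libraries together, and the cartilage FACIT chains COL9A1, COL9A2 and COL9A3 had 26, 10 and 54. COL10A1 of growth plate cartilage had 10 counts and COL22A1 of tissue junctions had 12. COL24A1 had 190 counts and COL26A1 had 77, of which visceral BPA library 977 alone held 98 and 59. Cartilage markers summed to 4.33 to 16.8 CPM over all libraries, with HAPLN1 and SNORC at 0 counts in every group.

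The widest contrast among the collagens was between the depots of control ewes. Tests used edgeR's quasi-likelihood method over all genes with Benjamini-Hochberg adjustment, and an adjusted p under 0.05 is called. Of 34 tested chains 13 were called, 5 higher and 8 lower in visceral fat, against 13.3% of 14456 genes called (7.17% higher and 6.16% lower). Groups did not overlap in 13 chains, 4 higher and 9 lower, where 19.9% of all genes had no overlap (10.5% higher and 9.39% lower). At an unadjusted p under 0.05 there were 16 chains, and 29.5% of all genes. COL4A3, COL4A4 and COL13A1 reached the filter's cutoff in no subcutaneous library, so they could enter the test only by being higher in visceral fat. Without these 3, 10 of 31 chains were called, 2 higher and 8 lower, and the groups of 10 did not overlap. The median log2 fold change was -0.19 over the 34 chains, -0.31 without those 3 and -0.01 over all genes. The chains called lower were COL1A1, COL1A2 and COL3A1 of the fibrils, COL6A3, COL6A5 and COL6A6 of the filaments and the FACIT chains COL12A1 and COL16A1. Those called higher were COL27A1, COL4A3, COL4A4, COL8A1 and COL13A1. In bulk tissue, fewer cells of a type and less RNA per cell cannot be told apart.

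Type I collagen was several-fold lower in visceral control fat. COL1A1 measured 2236, 1497, 1676 and 1639 CPM in subcutaneous controls 902, 924, 928 and 931, and 647, 316, 529 and 520.5 CPM in visceral controls 902, 908, 924 and 928. Every subcutaneous library was above every visceral one, and the log2 fold change was -1.82 ± 0.22 (SE; edgeR adjusted p = 0.000856). COL1A2, which supplies the remaining chain of the type I trimer, measured 2238, 1484, 1670.5 and 1277 CPM in the subcutaneous and 561, 317, 436 and 479 CPM in the visceral libraries. The groups did not overlap, with a log2 fold change of -1.90 ± 0.22 (edgeR adjusted p = 0.00064). COL3A1 measured 3486, 2438, 2029 and 1838 CPM against 1756, 775, 1205 and 1083 CPM. Its groups nearly met, and the log2 fold change of -1.03 ± 0.27 (edgeR adjusted p = 0.0282) lost its call when visceral 908, 924 or 928 or subcutaneous 902 or 924 was left out.

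The type V chains differed less and none of them was called. COL5A1 measured 694, 555, 536 and 529.7 CPM in subcutaneous and 497, 327, 520.0 and 472 CPM in visceral controls, so each visceral library was below each subcutaneous one although the chain was not called. COL5A2 averaged 113 and 105 CPM per 1000 bases in the same groups, and COL5A3 116 and 121. COL27A1, a fibrillar chain of thin fibrils best known from cartilage, went the other way, with 8.42, 6.95, 3.94 and 3.68 CPM in subcutaneous and 25.6, 19.8, 20.5 and 8.86 CPM in visceral controls. The lowest visceral value lay just above the highest subcutaneous one, and COL27A1 rose by 1.68 ± 0.36 on the log2 scale (edgeR adjusted p = 0.0133). The minor fibril chains COL11A1 and COL11A2 averaged 0.114, 0.105, 0.228 and 0.302 and 0.568, 1.18, 0.699 and 1.22 CPM per 1000 bases in subcutaneous control, subcutaneous BPA, visceral control and visceral BPA, and neither was called in any comparison.

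Among the type VI chains COL6A3, COL6A5 and COL6A6 were called between the depots, while COL6A1 and COL6A2 were not. COL6A1 measured 2456, 2316, 1772 and 1621 CPM in subcutaneous and 1944, 1082, 1798 and 1478 CPM in visceral controls, with overlap, and COL6A2 averaged 397 and 283 CPM per 1000 bases. COL6A3, the longest chain of the classic trimer and the source of the fragment endotrophin, measured 2154, 2738, 2273 and 3119 against 1105, 884, 1339 and 887 CPM. It fell by 1.30 ± 0.19 on the log2 scale without overlap (edgeR adjusted p = 0.0022). COL6A6, a chain that can take the place of COL6A3, measured 180.3, 202, 160.0 and 205 against 38.6, 36.4, 54 and 41.8 CPM. This was the smallest p among the collagens, with a log2 fold change of -2.14 ± 0.16 (edgeR adjusted p = 3.52e-05), and the libraries of each group lay close together. COL6A5, a further alternative chain, measured 91.2, 97.4, 15.1 and 28.4 against 13.0, 13.9, 9.84 and 5.66 CPM. Its subcutaneous libraries were widely spread and barely cleared the visceral ones, at a log2 fold change of -2.47 ± 0.54 (edgeR adjusted p = 0.014), which without subcutaneous 902 and 924 was -1.06 and not called.

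All 5 tested FACIT chains had estimates below 0 in visceral control fat and 2 of them were called. COL16A1 measured 262, 265, 333 and 375 CPM in subcutaneous and 141, 100.1, 142 and 88.2 CPM in visceral controls, a fall by 1.40 ± 0.19 on the log2 scale without overlap (edgeR adjusted p = 0.00151). COL12A1, which decorates type I fibrils under mechanical load, measured 510.4, 336, 139.7 and 371 against 114, 76.3, 157 and 82.0 CPM. Visceral 924 was above subcutaneous 928, so the groups overlapped, and the log2 fold change was -1.67 ± 0.35 (edgeR adjusted p = 0.0123), not called without subcutaneous 902 and 924 (-1.28). COL14A1, another fibril-surface chain, averaged 34.5 and 33.5 CPM per 1000 bases, and COL21A1, a minor member of the class, averaged 1.64 and 1.42.

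In the basement membrane class the abundant pair hardly differed and the rare pair stood apart. COL4A1 measured 5223, 3723, 5584 and 3609 CPM in subcutaneous and 7048, 4863, 5434 and 5441 CPM in visceral controls. COL4A2 measured 3477, 3046, 4184 and 2964 against 4034, 3107, 3737 and 3596 CPM. Both overlapped between depots and neither was called. COL4A3 and COL4A4, which join COL4A5 in the network of kidney and lung basement membranes, had only 3 counts each in the 4 subcutaneous controls and 124 and 133 in the 4 visceral controls. Scaled by library, the visceral level of COL4A3 was 21.5 times the subcutaneous one, with a 95% counting interval of 7.18 to 106, and that of COL4A4 was 23 times, with 7.72 to 113. COL4A3 measured 0.156, 0.339, 0 and 0 CPM in subcutaneous and 1.53, 1.34, 2.68 and 5.09 CPM in visceral controls (edgeR adjusted p = 0.00858). COL4A4 measured 0.156, 0.169, 0.158 and 0 against 3.59, 1.54, 4.40 and 2.13 CPM (edgeR adjusted p = 0.00239), so each visceral library exceeded each subcutaneous one for both chains. As given above, both could enter the test only by being higher in visceral fat. COL4A5 averaged 1.37 and 1.12 and COL4A6 averaged 0.554 and 0.306 CPM per 1000 bases.

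Of the remaining classes, the short-chain network collagen COL8A1 and the transmembrane chain COL13A1 were called higher in visceral controls. COL8A1, a product of vascular and mesothelial cells, measured 178, 80.0, 93.1 and 43.9 CPM in subcutaneous and 324, 162, 539 and 510.3 CPM in visceral controls. Subcutaneous 902 was above visceral 908, and COL8A1 rose by 1.95 ± 0.43 on the log2 scale (edgeR adjusted p = 0.0156). COL13A1 measured 0.468, 0.169, 0 and 0.613 against 6.38, 3.26, 4.57 and 1.89 CPM, from 7 and 181 counts, a ratio of 13.4 with a counting interval of 6.39 to 33.9 (edgeR adjusted p = 0.00662). This chain, too, could enter the test only by being higher in visceral fat. COL17A1, the transmembrane chain of hemidesmosomes, measured 6.55, 8.13, 6.62 and 4.29 against 2.96, 1.06, 3.19 and 3.45 CPM. Its groups did not overlap, but the log2 fold change of -1.27 ± 0.38 missed the threshold (edgeR adjusted p = 0.0509); with the title number as a block it was called (adjusted p = 0.0332). COL15A1 measured 832, 717, 847 and 663 against 958, 838, 866 and 681 CPM, COL18A1 measured 221, 133, 110.2 and 71.9 against 193, 112, 177 and 111 CPM, and both overlapped. COL28A1 measured 7.95, 7.96, 3.47 and 0.613 against 9.34, 0.480, 3.80 and 10.9 CPM and varied more within groups than between them. COL20A1, a FACIT chain of low level, measured 8.27, 6.61, 5.2 and 1.63 against 5.57, 2.69, 1.21 and 3.36 CPM. Low-level chains that were called in no comparison were COL23A1, a transmembrane chain, COL8A2, the partner of COL8A1, and COL7A1. In subcutaneous control, subcutaneous BPA, visceral control and visceral BPA their means per 1000 bases were 0.971, 0.7, 0.356 and 0.327 CPM for COL23A1 and 1.42, 1.31, 1.28 and 1.83 CPM for COL8A2. COL7A1, the anchoring fibril chain of epithelia, averaged 0.399, 0.513, 0.64 and 1.74 CPM per 1000 bases in the same order.

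With library total added to the model 0 of the 34 chains and 0 of 14456 genes were called, and totals do not overlap between these groups. In 1 fit of all 16 libraries 9 chains and 1499 of 14793 genes were called. The 9 chains did not include COL3A1, COL27A1, COL8A1 and COL13A1. Mesothelial markers were also higher in visceral controls, where 6 of 7 tested markers were called higher. LRRN4 had 0 counts in the subcutaneous controls and 1107 in the visceral ones. UPK3B and WT1 reached at most 0.473 and 0.204 CPM in subcutaneous controls, under the filter's cutoff of 1.16 CPM. Like LRRN4, they could enter the test only by being higher in visceral fat. The summed level of the mesothelial markers was 60.2 to 132 against 4.29 to 9.04 CPM. Among visceral controls this sum was highest in library 902 and lowest in 928, at 132 and 60.2 CPM. COL27A1 and COL13A1 were likewise highest in 902 and lowest in 928, while COL8A1, COL4A3 and COL4A4 were lowest in 908. Of the fibroblast and progenitor markers, 2 of 12 were called lower and 0 higher, with summed levels of 2977 to 4254 against 3423 to 4975 CPM. Adipocyte markers had 8 of 8 estimates higher with 1 called, and sums of 20339 to 28658 against 10493 to 21088 CPM. Endothelial markers, at 2949 to 3335 against 1872 to 3069 CPM, and smooth muscle and pericyte markers, at 690.4 to 1652 against 618 to 764 CPM, each had 7 of 8 estimates higher and 1 called. The part of these cell types in the collagen differences was not tested.

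**Figure D2:**
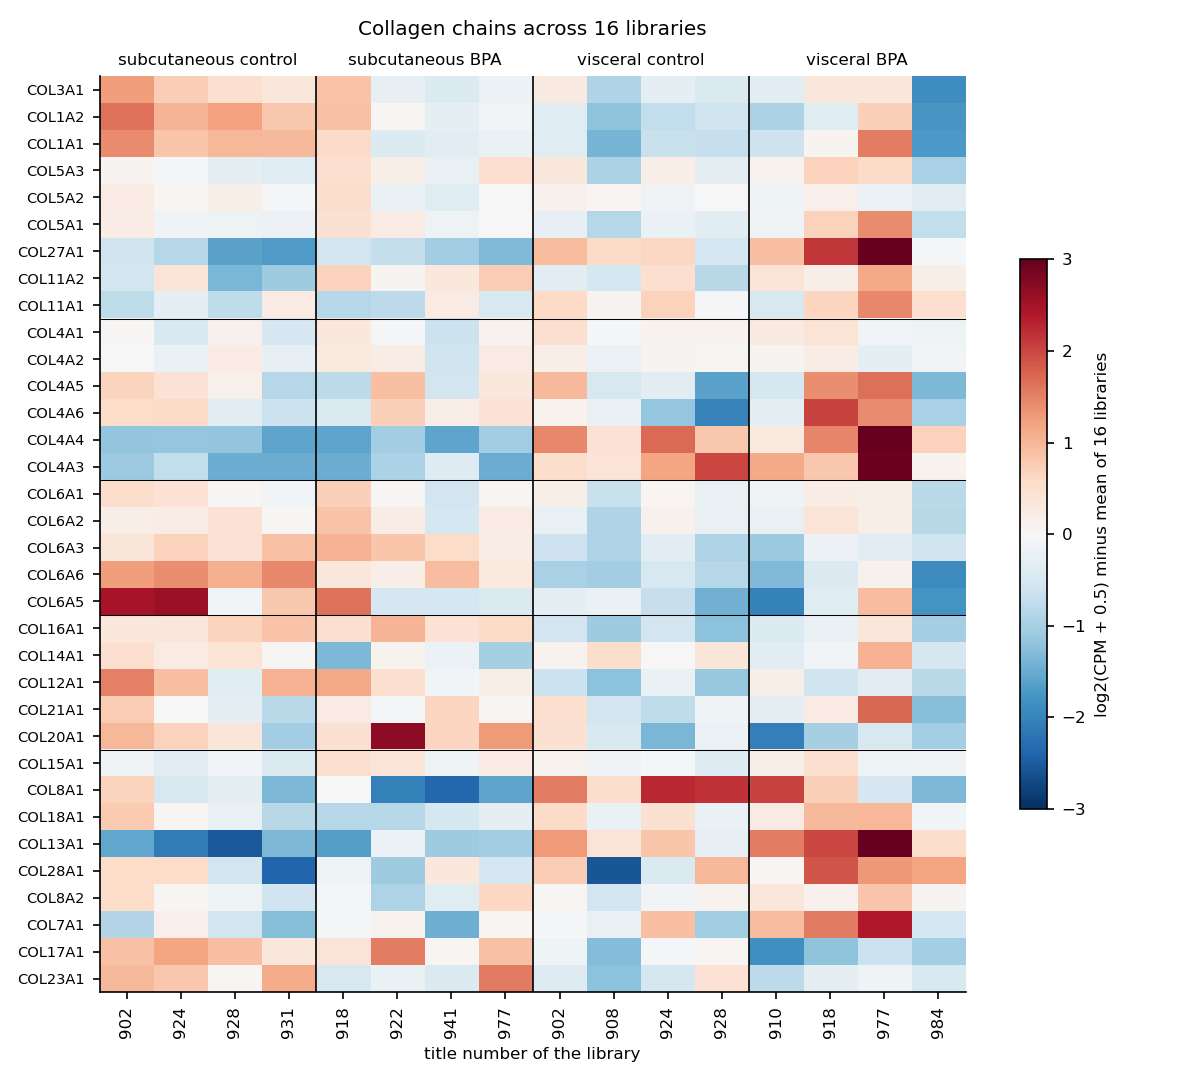
Each row is 1 tested collagen chain and each column 1 library, coloured by log2(CPM + 0.5) minus the mean of the 16 libraries, with colours ending at 3 and -3; black lines part classes and groups. The type I, COL3A1, COL6A5 and COL6A6 rows are mostly red in subcutaneous controls and blue in visceral fat, and visceral BPA library 977 holds the darkest reds of the COL27A1, COL4A4, COL4A3 and COL13A1 rows.

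The same depot contrast in BPA ewes called 7 of 30 tested chains, 4 higher and 3 lower in visceral fat, where 9.07% of 13782 genes were called (5.13% higher and 3.94% lower). Groups did not overlap in 8 chains, 3 higher and 5 lower, against 18.5% of all genes (9.64% higher and 8.82% lower). At an unadjusted p under 0.05 there were 12 chains, 6 higher and 6 lower, and 27% of all genes. COL6A3 was again lower, at 3499, 3003, 2463 and 1956 CPM in subcutaneous BPA libraries 918, 922, 941 and 977 and 784, 1488, 1358 and 1107 CPM in visceral BPA libraries 910, 918, 977 and 984. No visceral library reached the lowest subcutaneous one, and COL6A3 fell by 1.22 ± 0.25 on the log2 scale (edgeR adjusted p = 0.0183; 0.0682 with the title number as a block). COL27A1 measured 8.83, 7.83, 6.06 and 4.93 against 24.8, 59.7, 190.4 and 12.5 CPM and rose by 3.37 ± 0.76 (edgeR adjusted p = 0.0233). COL13A1 measured 0.411, 2.01, 0.866 and 0.896 against 7.75, 10.9, 101 and 3.59 CPM and rose by 4.86 ± 1.16 (edgeR adjusted p = 0.0289). For both, every visceral library was higher and library 977 was the highest by far. Without library 977 they rose by 2.19 and 2.78 on the log2 scale (edgeR adjusted p = 0.0158 and 0.0126).

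The other 4 called chains were not called in control ewes. COL18A1, the source of endostatin, measured 70.3, 70.7, 88.3 and 104 CPM in subcutaneous and 152, 252, 254 and 121 CPM in visceral BPA libraries, higher without overlap by 1.22 ± 0.26 on the log2 scale (edgeR adjusted p = 0.0202). COL28A1, a chain described in peripheral nerve, measured 4.72, 2.24, 6.64 and 3.58 against 5.50, 20.9, 13.7 and 12.6 CPM, with 1 overlapping library and an adjusted p of 0.0466 by edgeR. COL20A1 measured 5.55, 27.7, 6.35 and 10.1 against 0.562, 1.71, 2.66 and 1.68 CPM, a log2 fold change of -2.93 ± 0.60 (edgeR adjusted p = 0.0174). COL17A1 measured 4.52, 10.5, 3.46 and 6.49 against 0.562, 1.14, 1.92 and 1.37 CPM, a log2 fold change of -2.34 ± 0.49 (edgeR adjusted p = 0.019). Neither COL20A1 nor COL17A1 overlapped between depots. The 2 depot contrasts share no library, but whether they differ for a chain is the interaction given below, which called none.

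Type I collagen showed no resolved depot difference in BPA ewes. COL1A1 measured 1250.3, 633, 662 and 724 CPM in subcutaneous and 541, 887, 2433 and 252 CPM in visceral BPA libraries. The visceral values enclosed all subcutaneous ones, and the log2 fold change of 0.34 ± 0.57 turned to -0.56 without visceral library 977 (edgeR adjusted p = 0.742 with it). COL1A2 measured 1347, 759, 604 and 691 against 375, 562, 1188 and 215 CPM, and COL3A1 measured 2611, 1214, 1084 and 1276 against 1171, 1846, 1840.2 and 395 CPM, both with overlap. COL6A6 measured 94.9, 87.0, 144 and 92.9 against 30.2, 55.7, 82.6 and 19.8 CPM. Its groups did not overlap, and the log2 fold change of -1.17 ± 0.39 was not called (edgeR adjusted p = 0.0862). COL16A1 measured 294, 421, 284 and 309 against 157, 181, 267 and 104 CPM, likewise without overlap and with an adjusted p of 0.063 by edgeR. COL12A1 measured 398, 251, 169.8 and 203 against 202, 119, 143 and 103 CPM, and COL6A5 measured 50.9, 11.2, 11.0 and 11.9 against 3.59, 12.4, 30.8 and 4.28 CPM.

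COL8A1 measured 114, 27.1, 21.7 and 37.0 CPM in subcutaneous and 459, 184, 79.4 and 43.9 CPM in visceral BPA libraries, with a log2 fold change of 1.92 ± 0.71, close to the 1.95 of controls, that was not called (edgeR adjusted p = 0.112). COL4A3 had 3 and 122 counts and COL4A4 had 2 and 183 in these groups; their ratios were 18.7 (counting interval 6.25 to 91.9) and 42.1 (11.5 to 350), and neither chain had enough counts for this test. COL4A3 measured 0, 0.224, 0.577 and 0 against 2.58, 1.93, 10.2 and 0.993 CPM, and COL4A4 measured 0, 0.224, 0 and 0.224 against 1.35, 3.64, 16.8 and 1.91 CPM. The count of called chains depended on single libraries: it was 0 without subcutaneous BPA 922, 3 without 918 or 941 of that group and 9 without visceral BPA 977. Calls over all genes moved the same way, from 1250 with every library to 369, 726 and 491 without subcutaneous 922, 918 or 941. Without visceral 977 they were 2206. COL27A1 and COL13A1 lost their call when any 1 of the 4 subcutaneous BPA libraries was left out, and COL6A3, COL17A1 and COL20A1 only without 922. COL18A1 lost it without visceral 918 or subcutaneous 918, 922 or 941, and COL28A1 without visceral 918 or 984 or any subcutaneous library. With the title number as a block 12 chains and 921 of 14089 genes were called, and that fit rests on 2 pairs. COL13A1, COL18A1, COL27A1 and COL28A1 were called in both fits, while COL6A3, COL17A1 and COL20A1 were called only without the block (adjusted p with it 0.0682, 0.126 and 0.0797 by edgeR). The 8 chains called only with the block were COL12A1, lower in visceral fat, and COL14A1, COL4A3, COL4A4, COL4A5, COL4A6, COL7A1 and COL8A1, higher (edgeR adjusted p from 0.000659 to 0.0407). Of these, COL4A3 and COL4A4 had not been tested without the block. In subcutaneous libraries 918 and 977 they stood at 0 and 0 and at 0 and 0.224 CPM. COL13A1 also lay under the filter's cutoff in these subcutaneous libraries. COL4A3, COL4A4 and COL13A1 could therefore enter the fit with the block only by being higher in visceral fat. In the same contrast without the block, mesothelial markers had 2 of 3 tested called higher, at summed levels of 32 to 338 against 1.85 to 5.6 CPM. Of these markers, WT1 reached at most 0.224 CPM in subcutaneous BPA libraries, under the filter's cutoff of 1.72 CPM. It could enter the test only by being higher in visceral fat. Macrophage markers had 2 of 5 called higher (377 to 990 against 239 to 372 CPM) and endothelial markers 1 of 8. Fibroblast and progenitor markers had 2 of 12 called lower (2470 to 3131 against 2331 to 3571 CPM), and adipocyte and smooth muscle markers had none called. Their part in the collagen values was not tested.

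Prenatal BPA was not accompanied by a called change of any collagen chain in subcutaneous fat by edgeR. Of 30 tested chains 0 were called, against 0.709% of 13535 genes (0.606% higher and 0.103% lower). At an unadjusted p under 0.05 there were 9 chains, 3 higher and 6 lower, where 14.2% of all genes reached that level. DESeq2 called 3 chains, all lower, and 464 of 13535 genes, 251 higher and 213 lower. The groups did not overlap in 2 chains, COL1A1 and COL6A6, both lower in BPA, against 7.44% of all genes (4.2% higher and 3.24% lower). The median log2 fold change over the chains was -0.05 and over all genes -0.01.

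COL1A1 was the chain with the smallest p. The subcutaneous controls stood at 2236, 1497, 1676 and 1639 CPM and the BPA libraries at 1250.3, 633, 662 and 724 CPM, a mean of 1762 ± 325 against 817 ± 291 CPM (SD, n = 4). All BPA libraries were below all controls, and BPA library 918 lay well above the other 3. The log2 fold change was -1.10 ± 0.23 (SE), and the adjusted p was 0.0622 by edgeR, 0.000371 by DESeq2 and 0.0347 by edgeR without a filter on low counts. Without BPA library 918 it was -1.37 (edgeR adjusted p = 0.013), and without controls 902 and 924 it was -1.0 (edgeR adjusted p = 0.264). COL1A2 averaged 1668 ± 413 against 850.4 ± 337 CPM, with BPA library 918 at 1347 CPM above control 931 at 1277 CPM. Its log2 fold change was -0.97 ± 0.26 (adjusted p = 0.14 by edgeR and 0.0128 by DESeq2).

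COL6A6 was the other chain without overlap, at 160.0 to 205 CPM in controls and 87.0 to 144 CPM in BPA libraries. Its log2 fold change was -0.82 ± 0.18 (adjusted p = 0.0811 by edgeR and 0.00277 by DESeq2). Library 941, the shallowest, was the high value of the BPA group, and without it COL6A6 was called (edgeR adjusted p = 0.0264). Its relative COL6A5 had a log2 fold change of -1.44 ± 0.65 (edgeR adjusted p = 0.346) that rested on controls 902 and 924, at 91.2 and 97.4 CPM; without them the estimate was 0.00806. COL6A3 averaged 2571 ± 444 and 2730.2 ± 668 CPM and COL6A1 2041 ± 407 and 1881 ± 699.5 CPM, each pair within its spread.

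The remaining chains at an unadjusted p under 0.05 were few and went both ways. COL14A1 averaged 34.5 CPM per 1000 bases in controls and 19.8 in BPA libraries, with a log2 fold change of -0.79 ± 0.29, and COL18A1 averaged 134 ± 63.3 and 83.4 ± 16.3 CPM, with -0.68 ± 0.29. COL15A1 measured 832, 717, 847 and 663 CPM in controls and 1247, 1164, 814 and 1067 CPM in BPA libraries, with a log2 fold change of 0.50 ± 0.16. Only BPA library 941 fell within the control range. COL5A3 had a log2 fold change of 0.42 ± 0.18 and COL11A2 of 1.05 ± 0.43. The adjusted p-values of these 5 chains lay between 0.217 and 0.341 by edgeR. COL3A1 averaged 2448 ± 736 and 1547 ± 714 CPM, and BPA library 918 at 2611 CPM was above 3 of the 4 controls. COL5A1 averaged 579 ± 77.6 and 660.3 ± 126 CPM, COL4A1 4535 ± 1015 and 5009.8 ± 1319 CPM and COL4A2 3418 ± 558 and 3736 ± 939 CPM, each with wide overlap.

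Other measures moved with the group. The summed fibroblast and progenitor markers were 2331 to 3571 CPM in BPA and 3423 to 4975 CPM in control libraries, with 11 of 12 estimates lower and 1 called lower. Macrophage markers summed to 239 to 372 against 434 to 586 CPM, with 5 of 5 tested estimates lower and 1 called. Smooth muscle and pericyte markers summed to 788 to 1108 against 618 to 764 CPM, with 8 of 8 estimates higher and 1 called. Skeletal muscle markers summed to 51.4, 332, 150 and 370 CPM in BPA libraries 918, 922, 941 and 977 and to 42.9 to 82.7 CPM in controls, with 2 of 2 tested estimates higher and 0 called. The gene DES is in both muscle lists and is 1 of these 2. BPA libraries were also shallower, and with library total in the model COL1A1 stood at -0.73 (edgeR adjusted p = 0.552) while COL6A6 was called at -1.32 (edgeR adjusted p = 0.0466). In visceral fat 11 of 12 fibroblast and progenitor estimates were also lower in BPA, with sums of 2470 to 3131 against 2977 to 4254 CPM. Smooth muscle and pericyte markers had 7 of 8 estimates higher there and macrophage markers 4 of 5 lower, and 0 of these markers were called. The part of these measures in the collagen values was not tested.

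**Figure D3:**
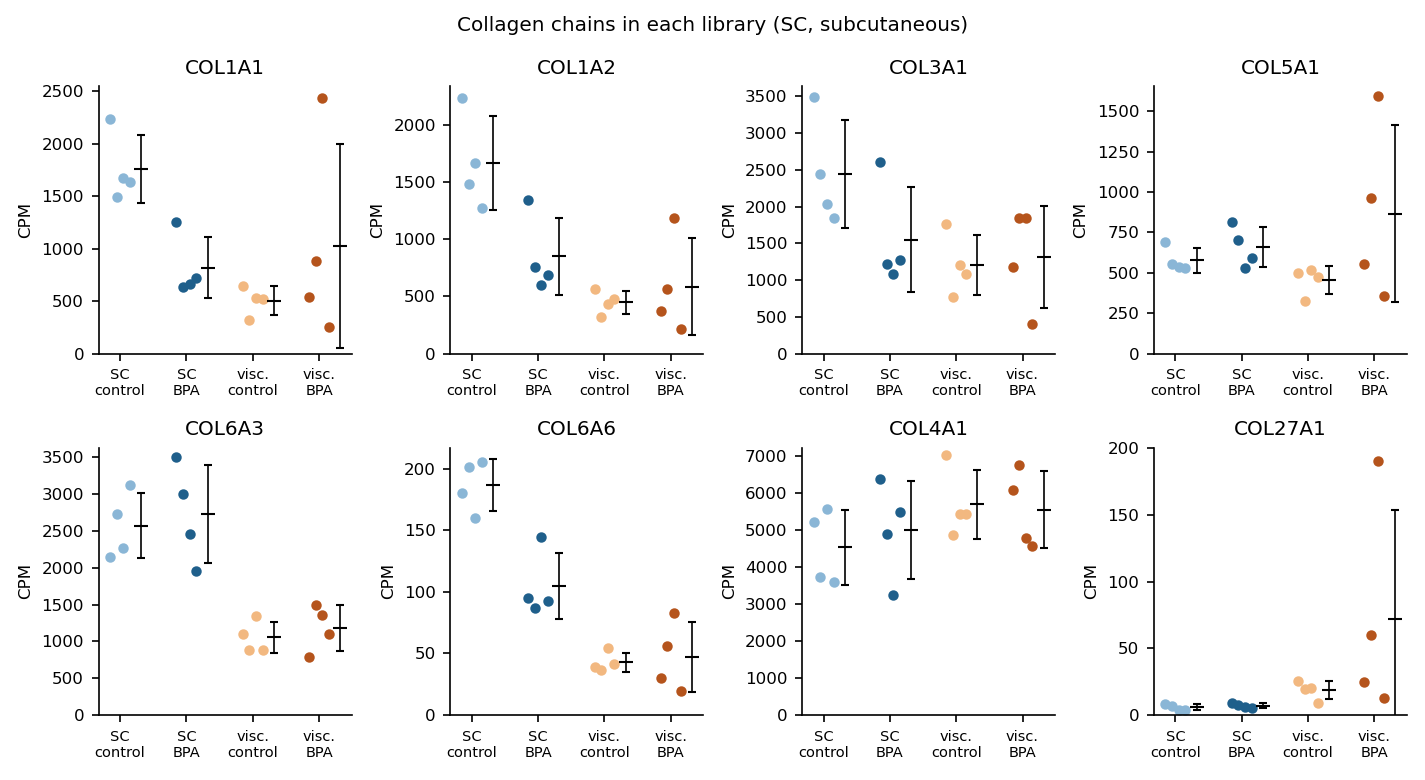
CPM of 8 collagen chains in each of the 16 libraries, points by group, with the mean and SD (n = 4) as a bar beside each group that is cut at 0. COL1A1 and COL6A6 separate subcutaneous BPA from subcutaneous control libraries, COL6A3 separates the depots, and 1 visceral BPA library, 977, carries the highest COL1A1, COL5A1 and COL27A1 values of that depot.

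In visceral fat no collagen chain was called between BPA and control, 0 of 33 tested, and 0% of 14774 genes were called. At an unadjusted p under 0.05 there were 5 chains, all higher, where 7.47% of all genes reached that level, and DESeq2 also called 0. No chain separated the groups, against 4.09% of all genes (2.13% higher and 1.96% lower). Estimates were above 0 for 26 of 33 chains, with a median log2 fold change of 0.41 and 0.00 over all genes. Without library 977 they were above 0 for 19 of 34 chains with a median of 0.06, and with library total in the model for 14 of 33 with a median of -0.12.

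The 5 chains were COL13A1, COL27A1, COL7A1, COL5A1 and COL4A6, each with an adjusted p of 0.658 by edgeR. COL13A1 measured 6.38, 3.26, 4.57 and 1.89 CPM in controls and 7.75, 10.9, 101 and 3.59 CPM in BPA libraries, and its log2 fold change of 2.96 ± 0.95 was 0.87 without library 977. COL27A1 measured 25.6, 19.8, 20.5 and 8.86 against 24.8, 59.7, 190.4 and 12.5 CPM, with 1.97 ± 0.71 and 0.78 without library 977. In both chains library 984 lay inside the control range. COL5A1 measured 497, 327, 520.0 and 472 against 554, 964, 1594 and 355 CPM, with 0.96 ± 0.40 and 0.46 without library 977. COL7A1 had a log2 fold change of 1.46 ± 0.60 and COL4A6 of 1.83 ± 0.77, which were 0.86 and 1.63 without library 977. COL4A6 and its network partner COL4A5 were also high in library 918, at 15.7 and 21.3 CPM. In library 977 they stood at 10.2 and 25.8 CPM. Smooth muscle and pericyte markers summed to 3975 CPM in library 918 and to 941 CPM in library 977. The part of these markers in the levels of the chains was not tested.

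Type I collagen spanned a wide range in visceral BPA fat. COL1A1 was 541, 887, 2433 and 252 CPM there, which includes both the highest and the lowest of the 8 visceral values, against 503 ± 138 CPM in controls (SD, n = 4). The log2 fold change was 1.06 ± 0.56, 0.15 without library 977 and -0.36 with library total in the model. COL1A2 averaged 448 ± 102 and 585 ± 426 CPM and COL3A1 1205 ± 409.6 and 1313 ± 689 CPM. The filament chains COL6A1 (1576 ± 382 and 1629 ± 469 CPM), COL6A3 (1054 ± 217 and 1184 ± 310.3 CPM) and COL6A6 (42.7 ± 7.86 and 47.1 ± 28.1 CPM) differed by less than their spread. So did COL4A1, at 5697 ± 941 and 5559 ± 1048 CPM, and COL4A2, at 3618 ± 387 and 3516 ± 519 CPM. COL15A1 averaged 836 ± 115 and 975 ± 203 CPM. COL16A1 averaged 118 ± 27.6 and 177 ± 67.8 CPM and COL8A1 384 ± 176 and 192 ± 188 CPM.

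Library 977 lay above all 7 other visceral libraries in 18 of 33 tested chains (54.5%; 27.5% of all genes) and below all of them in 1, COL4A2. COL1A1 at 2433 CPM compared with 252 to 887 CPM in the others, COL27A1 at 190.4 with 8.86 to 59.7, COL13A1 at 101 with 1.89 to 10.9, and COL4A4 at 16.8 with 1.35 to 4.40. The untested COL24A1 and COL26A1 reached 14.5 and 8.70 CPM there against at most 1.35 and 0.455 CPM in the other visceral libraries. Its COL4A1 and COL6A3, at 4802 and 1358 CPM, were inside the range of the others. Library 918 was the highest in 10 of 33 chains, against 9.73% of all genes, and library 984 the lowest in 12, against 13.4%. Fibroblast and progenitor markers were lowest of the visceral libraries in library 977, at 2470 CPM, while its COL1A1, COL1A2 and COL5A1 were highest.

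Whether the BPA difference was unequal in the depots was tested as an interaction over all 16 libraries. It called 0 of 34 chains and 0% of 14793 genes, also by DESeq2 for the chains, and 5 chains had an unadjusted p under 0.05, where 6.2% of all genes did. COL1A1 had the smallest p, with an interaction of 2.16 ± 0.67 on the log2 scale (edgeR adjusted p = 0.649), from estimates above 0 in visceral and below 0 in subcutaneous fat. The others were COL20A1 at -2.15 ± 0.84, COL18A1 at 1.09 ± 0.44, COL1A2 at 1.37 ± 0.56 and COL6A6 at 0.98 ± 0.45, with adjusted p-values from 0.725 to 0.793 by edgeR.

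**Figure D4:**
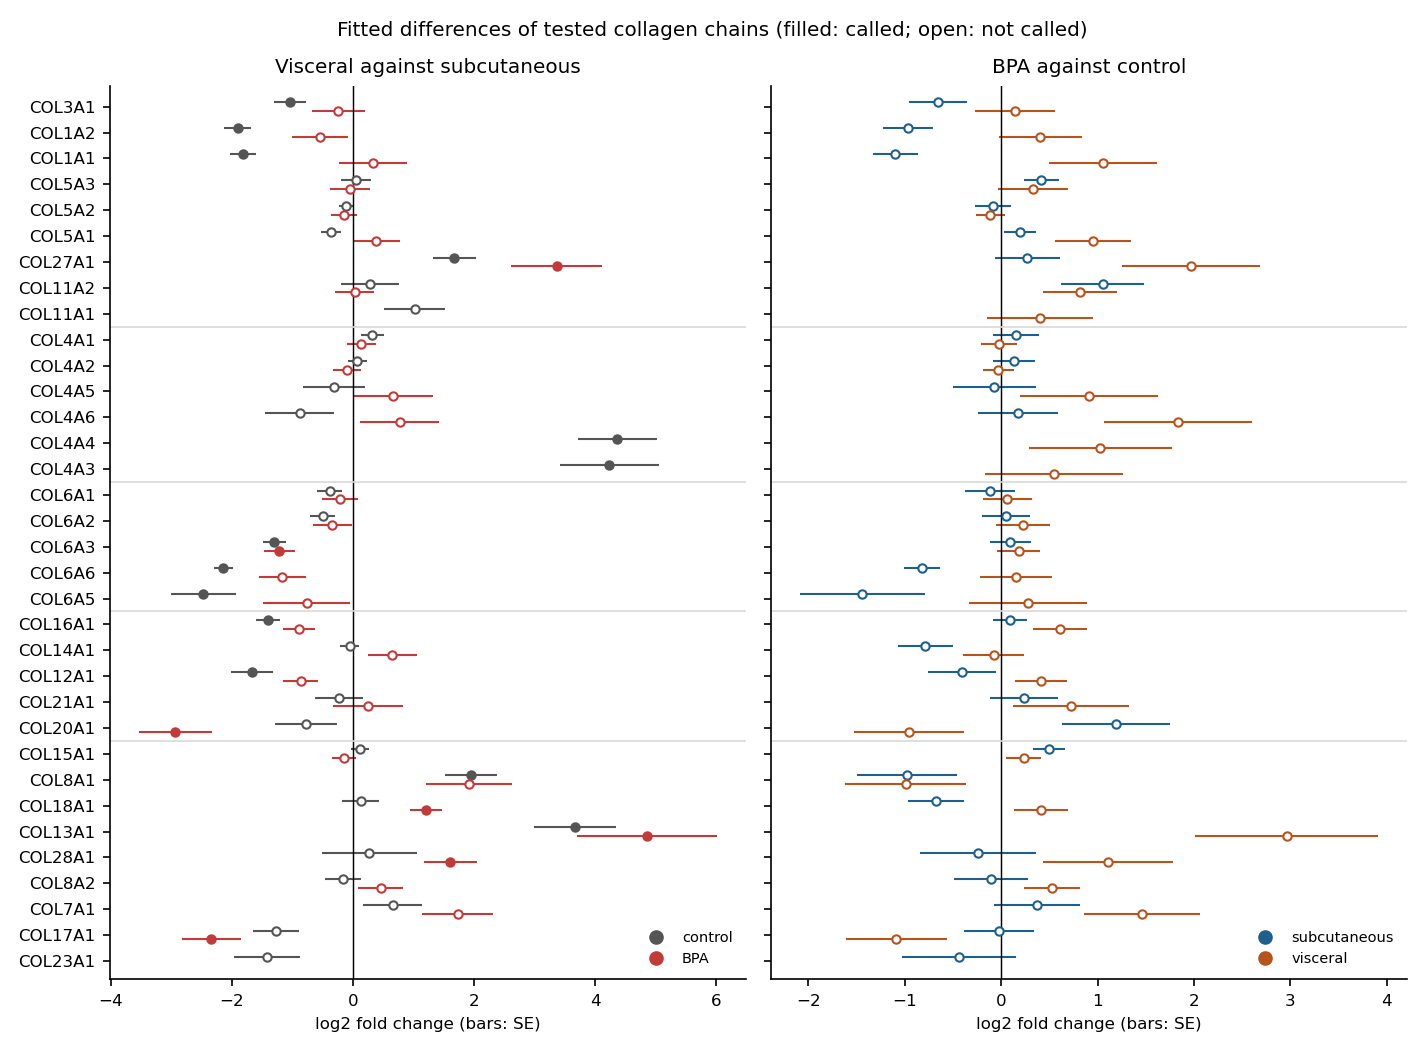
Fitted log2 fold changes with SE for the tested collagen chains, by class from fibrillar at the top to other at the bottom; filled points are called at an adjusted p under 0.05. The left panel sets visceral against subcutaneous fat in control and BPA ewes, with filled points for 13 and 7 chains, and the right panel sets BPA against control in each depot, with none filled.

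Ratios of chains within a library do not depend on its scaling. The ratio of COL1A1 to COL1A2 per 1000 bases ran from 0.642 to 1.58 over the 16 libraries, with the top value in visceral BPA library 977. That of COL4A1 to COL4A2, the head-to-head pair, ran from 1.19 to 1.75, and that of COL6A1 to COL6A2 from 0.979 to 1.70. COL6A3 over COL6A1 varied more, from 0.178 to 0.783, and was lower in visceral fat on average. The ratio of COL5A1 to COL1A1 was 0.218 to 0.261 in subcutaneous controls, 0.459 to 0.782 in subcutaneous BPA, 0.540 to 0.729 in visceral controls and 0.461 to 0.990 in visceral BPA. Subcutaneous controls were thus below every other library. COL4A1 exceeded COL1A1 2.06 to 3.12 times in subcutaneous controls, 4.60 to 7.24 times in subcutaneous BPA and 9.61 to 14.4 times in visceral controls, 3 ranges without overlap, while visceral BPA spanned 1.85 to 17 times. COL6A6 over COL6A3 was 0.0868 to 0.11 in subcutaneous controls and at most 0.0802 elsewhere. COL15A1 over COL18A1 was 7.79 to 15 in subcutaneous BPA and 3.18 to 7.80 in subcutaneous controls. These ratios were chosen after their values were seen and were not tested; a ratio shows unequal change and not which chain changed.

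**Figure D5:**
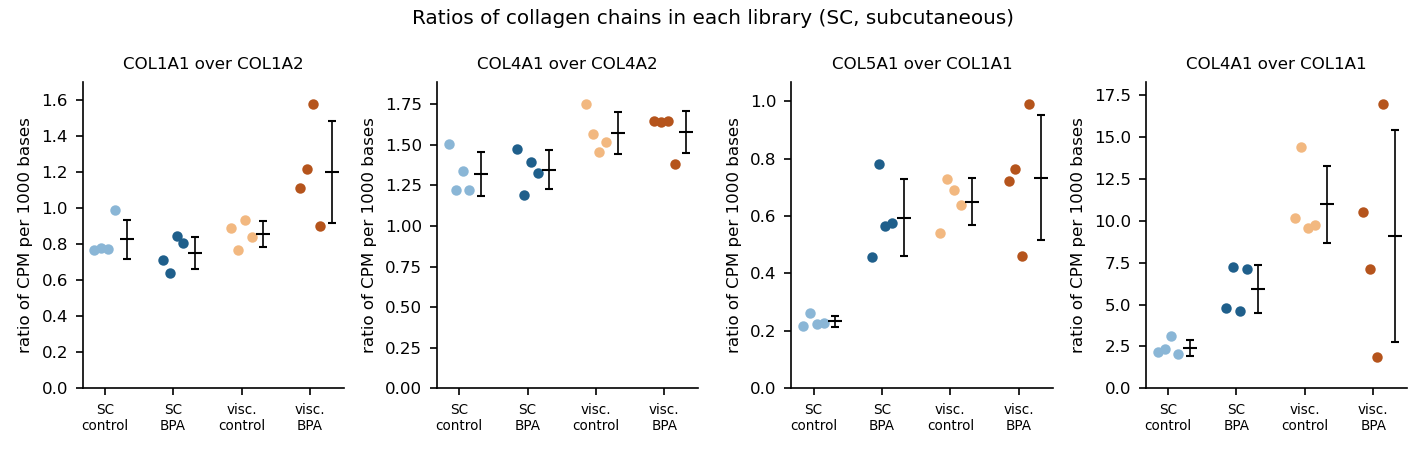
Ratio of 2 chains per 1000 bases in each library, with mean and SD (n = 4) beside each group. The ratio of COL4A1 to COL4A2 stays between 1.19 and 1.75, that of COL1A1 to COL1A2 is highest in visceral BPA library 977, and COL5A1 relative to COL1A1 is lowest in subcutaneous controls, at up to 0.261. COL4A1 relative to COL1A1 is up to 3.12 there and 1.85 in library 977.

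Levels of COL1A1 went with those of COL1A2 and COL3A1. Over all 16 and over the subcutaneous libraries they went less closely with those of the type V chains. As a description, the Pearson correlation of log2(CPM + 0.5) with COL1A1 over 16 libraries was 0.94 for COL1A2, the highest of 14792 genes, 0.88 for COL3A1, 0.80 for COL6A6 and 0.78 for COL6A5, and it was -0.10 for COL4A1 and -0.13 for COL15A1. Within the 8 visceral libraries COL4A1 and COL15A1 stood at 0.18 and 0.13, and at 0.91 and 0.59 without library 977. Within the 8 subcutaneous libraries they stood at 0.13 and -0.50. Within the 8 subcutaneous libraries the correlation was 0.97 for COL1A2, 0.90 for COL3A1 and 0.00 for COL6A3. For the type V chains COL5A1, COL5A2 and COL5A3 it was 0.68, 0.42 and 0.48 over 16 libraries. Over the subcutaneous ones it was -0.01, 0.63 and -0.33 for these chains. Over the 8 visceral ones it was 0.96, 0.13 and 0.82, against 0.97 for COL1A2 and 0.81 for COL3A1. Without library 977 the type V chains stood at 0.90, 0.67 and 0.97, against 0.93 for COL1A2 and 0.96 for COL3A1. The libraries share their groups and their scaling. The genes other than collagens with the highest values over 16 libraries were CD44 (0.91), CAPN1, CSF2RB, PRR5 and FSCN1. In subcutaneous fat they were PLEKHB2 (0.98), GGACT, GPX1, REEP4 and TFPI2, and in visceral fat ZNF185 (0.98), PRR5, TTYH3, WRAP73 and MDM1. The visceral list rests on library 977, since without it the top 5 were NLRX1, RTN2, PLCB4, CRAT and DNMT3B.

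The enzymes that modify and process collagen chains were read from lists beside the chains. In neither depot was any member of the folding, processing or receptor lists called between BPA and control, of 20, 9 and 11 tested in subcutaneous and 20, 10 and 12 in visceral fat. The smallest adjusted p was that of LOXL1, a crosslinking oxidase, in subcutaneous fat, at 29.8 ± 10.1 CPM in controls and 13.0 ± 2.16 CPM in BPA libraries (log2 fold change -1.18 ± 0.24, edgeR adjusted p = 0.0576). Between the depots of controls 6 of 20 folding and modification genes were called, 5 higher and 1 lower in visceral fat, where 13.3% of all genes were called. They included PLOD2, the lysyl hydroxylase of collagen telopeptides, at 115 ± 52.3 CPM in subcutaneous and 381 ± 76.5 CPM in visceral controls (log2 fold change 1.72 ± 0.27, edgeR adjusted p = 0.00329). The prolyl hydroxylase P3H2 rose by 1.68 ± 0.32 and the lysyl hydroxylase PLOD3 by 0.60 ± 0.11, while P3H3 fell by 0.58 ± 0.13 on the log2 scale (edgeR adjusted p from 0.00756 to 0.0174).

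Of 11 tested processing and crosslinking genes, 2 were called between the depots of controls, against 13.3% of all genes, so this count was near the background. BMP1, which trims the C-propeptide of fibrillar collagens, rose by 0.63 ± 0.16 (edgeR adjusted p = 0.0247), and its enhancer PCOLCE fell by 0.90 ± 0.21 (edgeR adjusted p = 0.0176). Of 12 collagen receptors 4 were called in the same comparison. ADGRG6, an adhesion receptor that can bind type IV collagen, rose by 1.62 ± 0.21 and the integrin chain ITGA1 by 0.67 ± 0.14. ITGA11, an integrin chain for fibrillar collagen, fell by 1.14 ± 0.19 and the uptake receptor MRC2 by 0.58 ± 0.14 (edgeR adjusted p from 0.00115 to 0.0202 for the 4). In BPA ewes 4 of 20 folding genes were higher in visceral fat, P3H2, SERPINH1, PLOD1 and PLOD2, by 0.88 to 1.92 on the log2 scale, where 9.07% of all genes were called. Of 10 processing genes PCOLCE2 and LOXL1 were higher, by 1.04 ± 0.16 and 1.48 ± 0.27, and of 11 receptors ADGRG6 rose by 1.88 ± 0.44 and ITGA11 fell by 1.01 ± 0.23 (edgeR adjusted p from 0.00663 to 0.0275 for these 8).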

How the data were processed

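Gene counts of 16 sheep fat libraries were used, 4 in each of 4 groups. Per the submitters' processing notes, the authors used FastQC 0.11.5, MultiQC 0.9, STAR 2.6.0c and featureCounts of Subread 1.6.1; the sources used here do not give the build, strand setting or treatment of reads shared between genes. The deposited values are whole-number counts (0 others), although their file is called normalized, and were treated as raw. Gene lengths were taken from the deposited table. The collagen chains, classes, lists and tests were chosen with earlier results of these data known.

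Genes passing filterByExpr (count of 10, total of 15) were tested with edgeR 4.0.16 (R 4.3.3; TMM, glmQLFit, glmQLFTest, two-sided) on the libraries of each comparison, with Benjamini-Hochberg adjustment over all tested genes. Levels are CPM with TMM factors over 16 libraries. SEs are the fitted log2 fold change over the root of its F statistic, and the method was tested on simulated data. Values in every library are given for COL1A1, COL1A2, COL3A1, COL5A1, COL4A1, COL4A2, COL6A1, COL6A3, COL15A1 and each called chain, group values for other tested chains, and called genes of the lists, up to 4 per comparison and list. Alternatives were DESeq2 1.42.0, its size factors, other filters, genes under 200 bases left out, library total as a covariate, 1 fit of all libraries, a title-number block (limma 3.58.1 or edgeR) and omitted libraries.

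Title numbers shared by both depots were checked as pairs by the correlation of deviations from the group mean over 14793 genes. It was 0.279, 0.408 and 0.334 for control numbers 902, 924 and 928, and 0.168 and 0.015 for BPA numbers 918 and 977. All of these but 977 matched their own number best in both depots. The numbers were used as pairs only in the title-number block, and the other fits treated the libraries as independent.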

Additional observations from a re-analysis of the deposited data

Results flagged for a closer look

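Within groups of 4 libraries, 82 groups of 22 chains with at least 20 counts were examined for a library whose gap to the nearest other, as a share of the group's range, exceeded Dixon's 95% critical value for 4 libraries. Chance alone passes this limit in about 1 in 20 groups, and 9 did. In subcutaneous BPA fat, library 918 was far above the rest for COL1A1 (1250.3 CPM, others 633 to 724), COL3A1 (2611 CPM, others 1084 to 1276), COL6A5 (50.9 CPM, others 11.0 to 11.9) and COL8A1 (114 CPM, others 21.7 to 37.0). In the same group, library 941 was far below the rest for COL4A2 (2334 CPM, others 4126 to 4333) and far above for COL6A6 (144 CPM, others 87.0 to 94.9). In visceral BPA fat, library 977 was far above the rest for COL13A1 (101 CPM, others 3.59 to 10.9) and COL4A4 (16.8 CPM, others 1.35 to 3.64). In subcutaneous controls, library 902 was above the rest for COL5A1 (694 CPM, others 529.7 to 555).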

How the results depend on the processing

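Of 828 values of single chains under an alternative, 744 kept direction and side of the threshold, 25 passed it newly, 52 lost it and 7 changed direction. In subcutaneous fat the count of chains called for BPA was 3 with DESeq2, 2 without a filter, 1 with library total as a covariate and 0 to 2 with 1 library left out. For the depots of controls it was 0 with the covariate and 10 to 14 with 1 library left out. In BPA ewes it was 11 with DESeq2, 3 with at least 50 counts in 4 libraries, 4 with the covariate, 12 with the title number as a block and 0 to 9 with 1 library left out (0 without subcutaneous 922, 3 without 918 or 941, 9 without visceral 977). The pairs behind that block correlated at 0.168 (918) and 0.015 (977), and library 977 did not match its own number best. COL4A3, COL4A4 and COL13A1, among those 12, could enter that fit only by being higher in visceral fat. For controls the block called 14 chains, 13 of them shared, and 2615 of 14707 genes. It added COL17A1 and changed no other call of a chain there. BPA against control in visceral fat and the interaction stayed at 0 under every alternative run, the block included. Directions changed for COL6A5 in subcutaneous BPA without controls 902 and 924 (0.00806) and for COL1A1 between depots of BPA ewes without visceral 977 (-0.56, in a range of -0.56 to 0.66 with 1 library left out). With the covariate they changed for COL1A1 in visceral BPA (-0.36), COL8A1 and COL4A3 between depots of controls (-2.92 and -1.78), and COL6A6 and COL16A1 between depots of BPA ewes (0.81 and 0.12). Causes were not tested. Over all genes, edgeR called 82 higher and 14 lower in subcutaneous BPA, DESeq2 251 and 213, edgeR without a filter 118 and 55, and with genes under 200 bases left out 1 and 0. With the covariate edgeR called 11 and 2. Between the depots of BPA ewes 2197 of 13782 genes were called with DESeq2 and 1049 of 10654 with at least 50 counts. The covariate gave 225 of 13782 genes there, and the block 921 of 14089. With 1 library left out 369 to 2206 genes were called there, and 1043 to 1755 in controls. At this depth COL4A3, COL4A4 and COL13A1 rest on 3, 3 and 7 counts in subcutaneous controls.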
